A study of Solanum lycopersicum with 24 samples.

Results

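The HSFA1 group and 5 other class A heat stress transcription factor (HSF) genes of tomato were followed in excised leaves with and without heat stress (HS). The 9 genes are HSFA1a (Solyc08g005170), HSFA1b (Solyc03g097120), HSFA1c (Solyc08g076590), HSFA1e (Solyc06g072750), HSFA4a (Solyc03g006000), HSFA4b (Solyc07g055710), HSFA4c (Solyc02g072000), HSFA5 (Solyc12g098520) and HSFA8 (Solyc09g059520). They were picked by gene ID as class A HSFs listed as constitutive and not by a measured value, though earlier results of these data were known. All 9 were found among the 34075 genes counted in every library. The count tables hold IDs without names. Among the annotations at hand, the ID of HSFA4c was the only one of the 9 that came with an HSF description.

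HSFs are the terminal factors of the heat stress response, and they bind short inverted repeats, the heat stress elements, in the promoters of chaperone genes. Class A members carry an activation domain, whereas most class B members lack it. HSFA1 proteins are thought to be present before stress in a complex with HSP70 and HSP90 chaperones and to become active when misfolded proteins draw these chaperones away, and in tomato HSFA1a has been described as the master regulator that then turns on HSFA2 and the small heat shock proteins. In Arabidopsis, HSFA4 and HSFA8 proteins have been linked to reactive oxygen species, and HSFA5 binds HSFA4 and curbs its activity. Activation of HSFA1 occurs on the protein, so mRNA levels are not a measure of HSFA1 activity.

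RNA was sequenced from 24 libraries, 3 for each of 8 groups: rs2z35 HS, rs2z36 HS, rs2z35 36 HS, WT HS, and the same 4 genotypes in control. All plants were of cv. Moneymaker and 6 weeks old, and their excised leaves were kept for 1 h at 40 °C (HS) or for 1 h at 25 °C (control). The mutants carry CRISPR/Cas9 frameshifts, made by losing or gaining a single base, in RS2Z35, in RS2Z36, or in both after a cross of T-DNA-free single mutants. The affected genes encode SR splicing factors. The labels number the libraries as replicates and the methods call these biological, but how plants were divided over libraries was not given. The p-values measure the spread between these libraries, in HS as left by the authors' batch adjustment of the counts. The fits took no account of that adjustment, so p-values that involve HS libraries may be too small. The labels name no separate lines within a mutant genotype, so genotype and line cannot be told apart.

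The libraries held 16853134 to 23929283 counts in HS and 18692423 to 22517273 in control. Levels are given in CPM, the usual unit of counts scaled to a common library size, here with TMM factors, which were 0.737 to 0.849 in HS and 1.24 to 1.33 in control. RS2Z35 had a log2FC against WT of -2.32 in rs2z35 HS and -2.37 in rs2z35 36 HS, and -2.56 and -2.63 in the same mutants in control. RS2Z36 had a log2FC of -0.32 in rs2z36 HS and -0.37 in rs2z35 36 HS, and of -0.57 and -0.75 in control, so the mutants stood nearer to WT for this gene than for RS2Z35. The one leaf gene with a description, a RuBP carboxylase small subunit, stood at 2152 to 4125 CPM in HS and 2508 to 3946 CPM in control. The HS counts, and not the control counts, had been adjusted with ComBat-Seq by the authors, so that adjustment and treatment cannot be told apart between HS and control. Fewer cells of a type and less RNA per cell cannot be told apart in such whole-leaf RNA.

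The comparison of HS with control within each genotype asked whether the transcripts of these 9 genes change during 1 h at 40 °C. In WT, HSFA4c and HSFA1b rose by 28.5-fold and 18.8-fold, HSFA8 rose 5.02-fold, HSFA5 rose 3.69-fold, and HSFA4b fell 5.98-fold. HSFA4a was 1.98-fold higher, just short of the fold threshold, and HSFA1a, HSFA1c and HSFA1e had log2FC values between -0.29 and -0.20. HSFA4c, HSFA1b, HSFA8 and HSFA5 also rose, and HSFA4b also fell, in all 3 mutants. HSFA4a was higher in HS in all 4 genotypes, by 1.92-fold to 2.10-fold, on both sides of the fold threshold. The name constitutive therefore did not describe the mRNA of HSFA1b, HSFA4c, HSFA5 and HSFA8 in these leaves. Nor did it describe that of HSFA4a, with its smaller rise, or of HSFA4b, which had only 0 to 14 counts per HS library. The genes are called here by their HSF names alone.

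Genes were called with edgeR's quasi-likelihood test when the absolute log2FC was above 1 and the Benjamini-Hochberg adjusted p-value over all tested genes was below 0.01, which were the thresholds of the study. All 9 genes passed the filter on low counts in every comparison. In rs2z35, 6 of the 9 were called, 5 higher and 1 lower, and 22.8% of all 22648 genes tested were called, 11.7% higher and 11.1% lower. In rs2z36, 5 were called, 4 higher and 1 lower, against 22.7% of all genes, 11.8% higher and 10.9% lower. In rs2z35 36, 6 were called, 5 higher and 1 lower, against 25.1%, with 13.1% higher and 12% lower. In WT, 5 were called, 4 higher and 1 lower, against 25.1% of 22692 genes, 13.5% higher and 11.6% lower. The share of the 9 genes called was thus above that of all genes in each genotype, which is a description of a short list. The median log2FC of the 9 genes was 1.03 in rs2z35, 0.94 in rs2z36, 1.07 in rs2z35 36 and 0.98 in WT, and that of all genes lay between -0.04 and -0.03. At an adjusted p below 0.05 and any fold, 5 of the 9 were higher in each genotype, against 27.3% of all genes in rs2z35, 26.1% in rs2z36, 28.6% in rs2z35 36 and 30.1% in WT. By the same rule 1 was lower in rs2z35 and 2 were lower in each other genotype, against 27.8%, 27.4%, 29.1% and 30.8% of all genes in rs2z35, rs2z36, rs2z35 36 and WT.

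**Figure D1:**
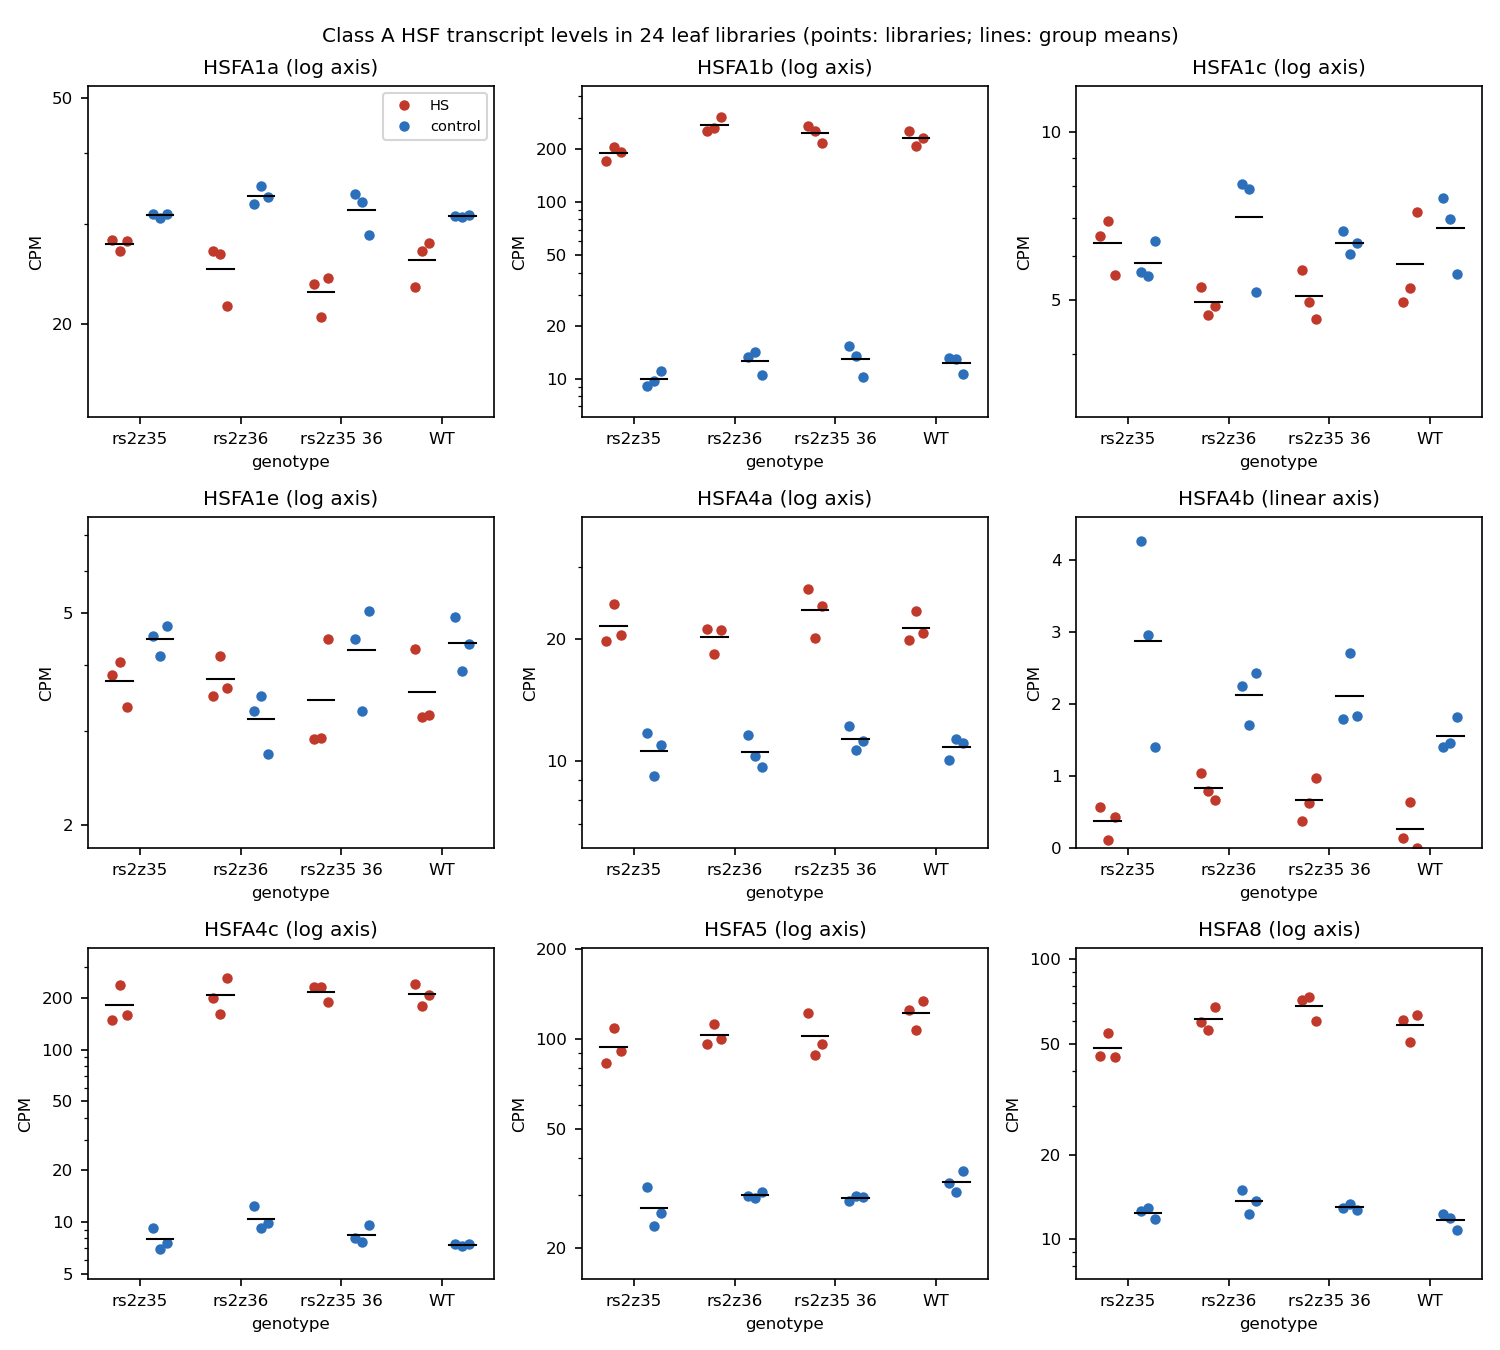
Transcript level of each gene in CPM (log axes, and a linear axis for HSFA4b) in the 3 HS libraries (left of each pair) and the 3 control libraries of the 4 genotypes, with lines at the group means. HSFA1b lay at 172 to 302 CPM in the 12 HS libraries and 9.14 to 15.5 CPM in the 12 control libraries, whereas the HS and control libraries of HSFA1c and HSFA1e overlap.

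Within the HSFA1 group, HSFA1b was the member whose mRNA rose. It stood at 253, 207 and 231 CPM in the WT HS libraries, against 13.2, 13.0 and 10.6 CPM in the WT control libraries. Each WT HS library was far above each WT control library, and the mutants showed the same gap. The values were 172, 206 and 193 CPM in rs2z35 HS, against 9.14, 9.70 and 11.1 CPM in rs2z35 control. They were 253, 264 and 302 CPM in rs2z36 HS, against 13.4, 14.2 and 10.5 CPM in rs2z36 control. The double mutant gave 271, 253 and 215 CPM in HS, against 15.5, 13.5 and 10.2 CPM in control. HS and control did not overlap in any genotype, and the lowest HS library and the lowest control library were both from rs2z35. The log2FC was 4.26 ± 0.12 in rs2z35, 4.43 ± 0.15 in rs2z36, 4.25 ± 0.16 in rs2z35 36 and 4.24 ± 0.12 in WT (± SE), with adjusted p-values from 1.85e-09 to 5.79e-08, and the call held when each library was left out in turn.

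HSFA1a, the tomato master regulator, fell at an adjusted p below 0.05 in rs2z36, rs2z35 36 and WT, by less than the fold threshold, and missed that p in rs2z35. Its level was 23.3, 26.8 and 27.8 CPM in WT HS, against 31.0, 30.9 and 31.1 CPM in WT control. The WT groups did not overlap, and the HS libraries were the lower ones. In rs2z35 it was 28.1, 26.9 and 28.0 CPM in HS, against 31.2, 30.7 and 31.3 CPM in control. In rs2z36 it was 26.9, 26.6 and 21.6 CPM in HS, against 32.5, 34.9 and 33.4 CPM in control. The values of rs2z35 36 were 23.5, 20.6 and 24.1 CPM in HS, against 33.9, 32.8 and 28.7 CPM in control. Every HS library lay below every control library, 20.6 to 28.1 CPM against 28.7 to 34.9 CPM, although the gap was small. The log2FC was -0.16 ± 0.08 in rs2z35, -0.42 ± 0.11 in rs2z36, -0.47 ± 0.11 in rs2z35 36 and -0.25 ± 0.09 in WT, and in no genotype did it reach the fold threshold. The adjusted p was 0.124 in rs2z35, 0.0103 in rs2z36, 0.00316 in rs2z35 36 and 0.0343 in WT. In WT it rose above 0.05 without WT control replicate 1, 2 or 3 or without WT HS replicate 1, to at most 0.122 in edgeR, and it was 0.0849 in DESeq2 with all libraries. In rs2z36 and rs2z35 36 it stayed below 0.05 without any single library.

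HSFA1c and HSFA1e, the remaining HSFA1 genes, passed neither threshold in any genotype. HSFA1c had 4.95, 5.26 and 7.19 CPM in WT HS, against 7.60, 6.99 and 5.56 CPM in WT control. HSFA1e had 4.27, 3.20 and 3.22 CPM in WT HS, against 4.92, 3.89 and 4.38 CPM in WT control. The HS and control libraries of WT overlapped for both genes. Over the 12 libraries of each condition HSFA1c spanned 4.61 to 7.19 CPM in HS and 5.15 to 8.08 CPM in control. The spans of HSFA1e were 2.90 to 4.47 CPM in HS and 2.72 to 5.05 CPM in control. The log2FC of HSFA1c was 0.13 ± 0.14 in rs2z35, -0.50 ± 0.20 in rs2z36, -0.31 ± 0.15 in rs2z35 36 and -0.20 ± 0.18 in WT, with adjusted p-values from 0.0627 to 0.479. That of HSFA1e was -0.25 ± 0.15 in rs2z35, 0.26 ± 0.19 in rs2z36, -0.29 ± 0.23 in rs2z35 36 and -0.29 ± 0.17 in WT, with adjusted p-values from 0.170 to 0.311. Both genes had low counts, 63 to 128 per HS library for HSFA1c and 37 to 75 for HSFA1e. The 95% intervals in WT thus still reached from -0.61 to 0.20 for HSFA1c and from -0.68 to 0.10 for HSFA1e.

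The HSFA4 genes went 3 ways. HSFA4c had the largest increase of all 9 genes in rs2z35, rs2z35 36 and WT, with 242, 179 and 207 CPM in WT HS, against 7.41, 7.24 and 7.46 CPM in WT control. It reached 149, 236 and 159 CPM in rs2z35 HS, against 9.14, 6.97 and 7.56 CPM in rs2z35 control. In rs2z36 it had 200.3, 161 and 259 CPM in HS, against 12.3, 9.20 and 9.82 CPM in control. In these 3 genotypes HS and control did not overlap, and the spread among the HS libraries of rs2z35 came from replicate 2, the highest there. The level in rs2z35 36 was 230.2, 232 and 188 CPM in HS, against 8.01, 7.58 and 9.57 CPM in control. The log2FC of HSFA4c was 4.53 ± 0.21 in rs2z35, 4.31 ± 0.21 in rs2z36, 4.71 ± 0.14 in rs2z35 36 and 4.83 ± 0.12 in WT, with adjusted p-values from 2.19e-10 to 7.98e-07.

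HSFA4a rose by close to the fold threshold. The WT HS libraries held 19.9, 23.4 and 20.6 CPM and the WT control libraries 10.1, 11.3 and 11.1 CPM. All 12 HS libraries, at 18.4 to 26.6 CPM, were above all 12 control libraries, at 9.16 to 12.2 CPM. The log2FC was 1.03 ± 0.13 in rs2z35, 0.94 ± 0.12 in rs2z36, 1.07 ± 0.12 in rs2z35 36 and 0.98 ± 0.10 in WT, with adjusted p-values from 2.34e-05 to 2.51e-04, so the gene was called in rs2z35 and rs2z35 36 and fell short of the fold in rs2z36 and WT. These calls depended on single libraries: leaving out 1 library moved the log2FC between 0.93 and 1.11 in rs2z35, between 0.88 and 1.03 in rs2z36, between 0.99 and 1.18 in rs2z35 36 and between 0.91 and 1.04 in WT. The call was lost without rs2z35 control replicate 2, rs2z35 HS replicate 2 or rs2z35 36 HS replicate 1, and was gained without rs2z36 control replicate 1, rs2z36 HS replicate 2, WT control replicate 2 or 3, or WT HS replicate 1 or 3.

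HSFA4b was the gene of the 9 that was called lower, at the limit of the depth. In counts, adjusted in HS and raw in control, the WT HS libraries held 2, 9 and 0, against 37, 41 and 45 in WT control. As a raw count, the 0 in WT HS replicate 3 would allow up to 0.205 CPM, taking 3 reads as the limit of counting error. The HS counts had been adjusted, so this limit may not hold. The WT groups did not overlap. Counts were 9, 2 and 7 in rs2z35 HS, against 110, 77 and 35 in rs2z35 control. For rs2z36 the counts were 14, 12 and 9 in HS, against 52, 41 and 70 in control. For rs2z35 36 they were 5, 8 and 14 in HS, against 45, 72 and 45 in control. No HS library reached the lowest control library, neither in counts nor in CPM (0 to 1.04 CPM in HS and 1.40 to 4.26 CPM in control). The log2FC was -2.97 ± 0.57 in rs2z35, -1.35 ± 0.28 in rs2z36, -1.63 ± 0.35 in rs2z35 36 and -2.58 ± 0.60 in WT, with adjusted p-values from 0.00204 to 0.00463. Without WT HS replicate 2, the highest of its group, the log2FC in WT was -4.40, and it stayed below zero without any single library. The adjusted p rose above 0.01 without rs2z36 control replicate 1, rs2z36 HS replicate 2 or 3, rs2z35 36 HS replicate 1 or 2, WT control replicate 1, 2 or 3, or WT HS replicate 1, with a maximum of 0.0220.

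HSFA5 and HSFA8, each the sole member of its group here, both rose. HSFA5, which in Arabidopsis restrains HSFA4, had 125, 107 and 135 CPM in WT HS, against 32.9, 30.8 and 36.2 CPM in WT control. The mutants averaged 94.4 ± 13.1 CPM in rs2z35 HS, 103 ± 8.53 CPM in rs2z36 HS and 102 ± 17.7 CPM in rs2z35 36 HS, against 27.2 ± 4.32, 30.0 ± 0.693 and 29.4 ± 0.656 CPM in the controls of rs2z35, rs2z36 and rs2z35 36 (SD, n = 3 each). The HS range of 83.0 to 135 CPM did not touch the control range of 23.6 to 36.2 CPM. The log2FC of HSFA5 was 1.80 ± 0.14 in rs2z35, 1.78 ± 0.10 in rs2z36, 1.81 ± 0.12 in rs2z35 36 and 1.88 ± 0.10 in WT, with adjusted p-values from 2.21e-07 to 1.81e-05. The 95% intervals of the 4 genotypes overlapped.

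HSFA8 had 60.8, 50.8 and 63.2 CPM in WT HS, against 12.3, 11.9 and 10.8 CPM in WT control. It had 45.0, 54.6 and 44.7 CPM in rs2z35 HS, against 12.6, 12.9 and 11.8 CPM in rs2z35 control. In rs2z36 it had 59.8, 55.7 and 67.4 CPM in HS, against 15.0, 12.2 and 13.7 CPM in control, and rs2z35 36 followed with 71.7, 73.2 and 60.0 CPM in HS, against 12.9, 13.3 and 12.7 CPM in control. Again HS and control stood apart in each genotype. The lowest HS library was from rs2z35 and the highest from rs2z35 36. The log2FC was 1.96 ± 0.11 in rs2z35, 2.16 ± 0.12 in rs2z36, 2.41 ± 0.11 in rs2z35 36 and 2.33 ± 0.10 in WT, with adjusted p-values from 7.15e-09 to 2.11e-06. The calls of HSFA1b, HSFA4c, HSFA5 and HSFA8 held in all genotypes without any single library and in every other fit that was run.

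**Figure D2:**
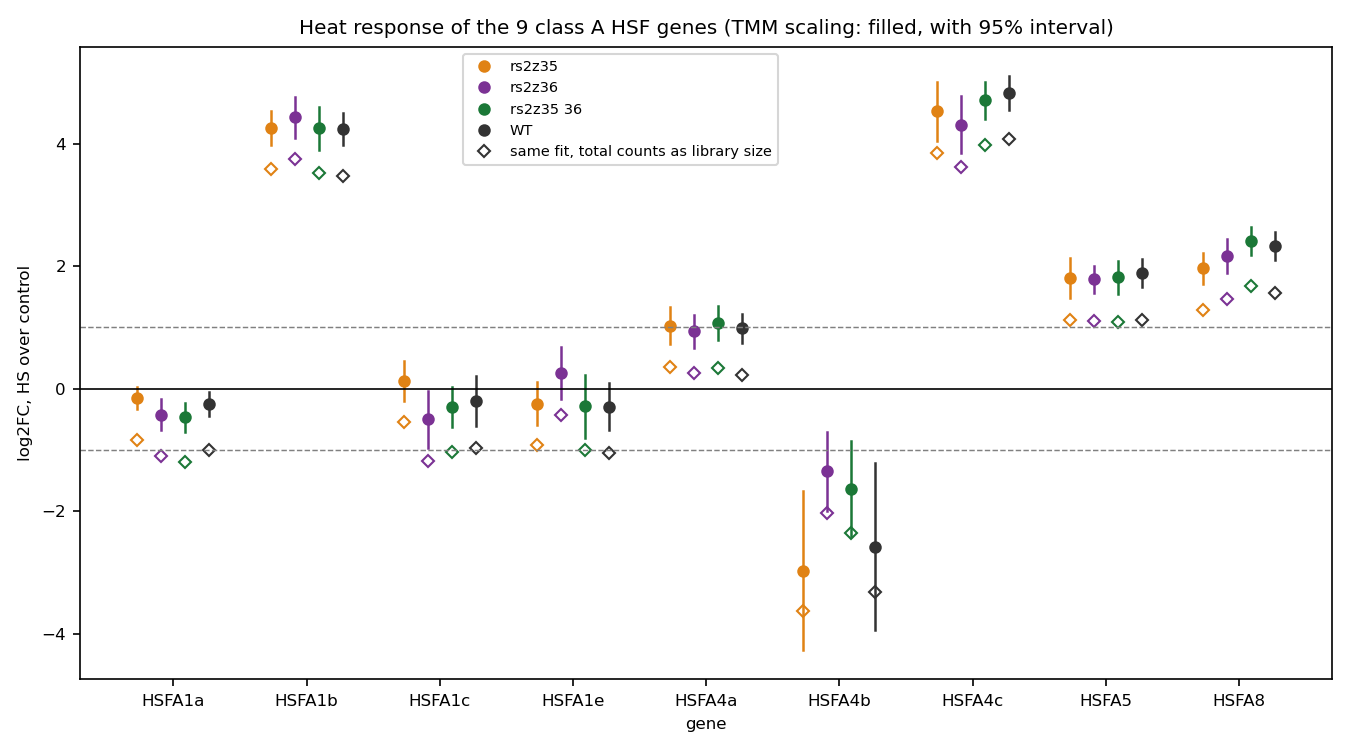
Log2FC of HS over control for each gene in the 4 genotypes (filled points, with 95% intervals, from edgeR with TMM scaling) and from the same fit with total counts as library size (open diamonds). Dashed lines mark a log2FC of 1 and of -1. HSFA1b, HSFA4c, HSFA5 and HSFA8 stay above 1 and HSFA4b below -1 under both scalings, and HSFA1a, HSFA1c, HSFA1e and HSFA4a move across a line or across zero in at least 1 genotype.

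The size and the calls of the small changes depended on scaling, and for HSFA1c in rs2z35 and HSFA1e in rs2z36 the direction did too. With total counts in place of TMM factors the median log2FC of all genes moved to -0.70 in rs2z35, -0.72 in rs2z36, -0.76 in rs2z35 36 and -0.79 in WT, and the 9 genes moved with it. HSFA1a was then called lower in rs2z36 (-1.11), rs2z35 36 (-1.19) and WT (-1.01). HSFA1c was called lower in rs2z36 and rs2z35 36, HSFA1e in rs2z35 36 and WT, and HSFA4a was called in no genotype. The calls became 4 higher and 1 lower in rs2z35, 4 and 3 in rs2z36, 4 and 4 in rs2z35 36, and 4 and 3 in WT. HSFA1c in rs2z35 changed sign, to -0.55, and so did HSFA1e in rs2z36, to -0.43. With TMM scaling and relative to the median of all genes, the log2FC of HSFA1a, HSFA1c and HSFA1e lay between -0.47 and 0.29 over the 4 genotypes.

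A ratio of the counts of 2 genes in a library is free of this choice, and gene length cancels when HS is set against control. Relative to HSFA1a, HSFA1b counts were higher in HS than in control by 21.4-fold in rs2z35, 29.2-fold in rs2z36, 26.6-fold in rs2z35 36 and 22.5-fold in WT. Counts within the HSFA1 group thus shifted toward HSFA1b. The counts of HSFA4c relative to HSFA1a were higher by 25.4-fold in rs2z35, 26.5-fold in rs2z36, 36.1-fold in rs2z35 36 and 33.7-fold in WT. HSFA8 gained 4.33-fold in rs2z35, 6.04-fold in rs2z36, 7.32-fold in rs2z35 36 and 5.97-fold in WT. For these 3 genes, and for HSFA5 and HSFA4a, the HS and control ratios did not overlap in any genotype. HSFA5 gained 3.89-fold to 4.82-fold and HSFA4a 2.27-fold to 2.89-fold. HSFA1c relative to HSFA1a was at 1.21-fold in rs2z35, 0.967-fold in rs2z36, 1.12-fold in rs2z35 36 and 1.03-fold in WT, and its HS and control ratios overlapped in each. HSFA1e was at 0.935-fold in rs2z35, 1.61-fold in rs2z36, 1.12-fold in rs2z35 36 and 0.966-fold in WT, with no overlap in rs2z36 and overlap in the other 3. These ratios are descriptions, with no test of their own.

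**Figure D3:**
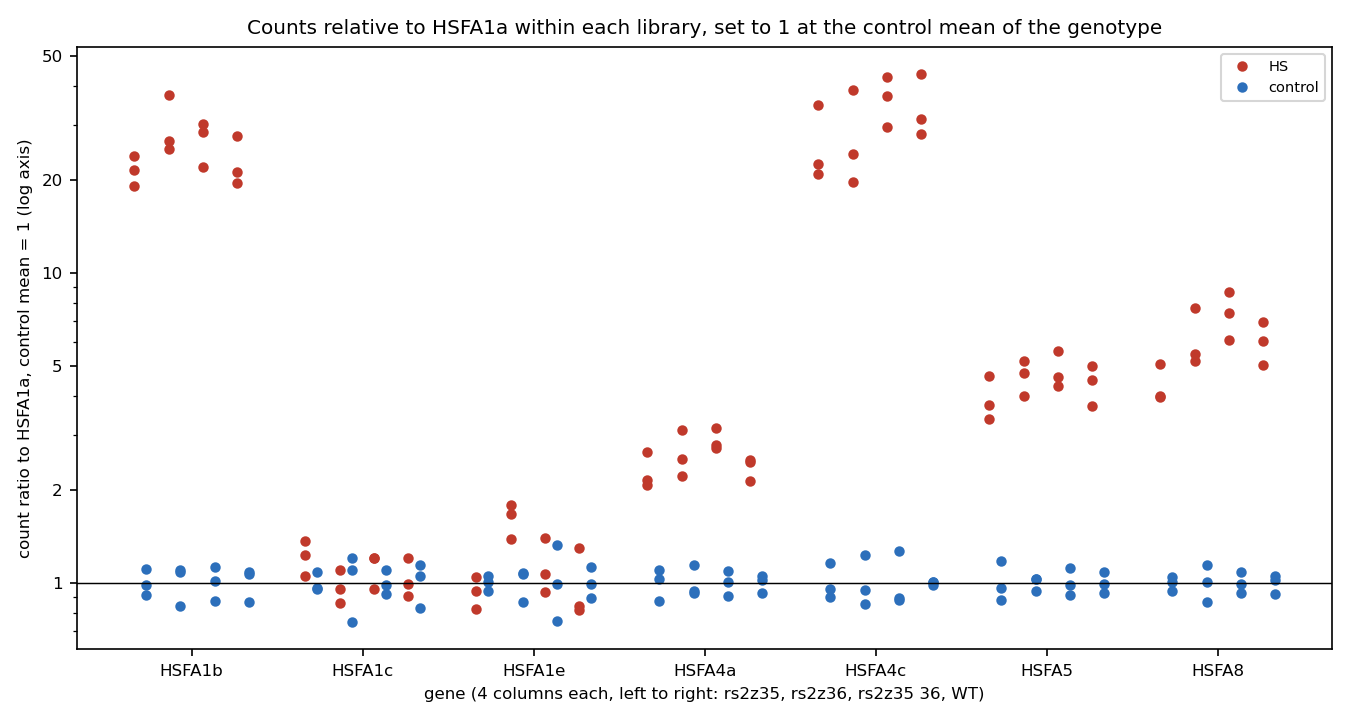
Count of each gene divided by that of HSFA1a in the same library, with the control mean of each genotype set to 1 (log axis). Each point is a library, HS left of control, and HSFA4b is left out because of its low counts. In WT, HSFA1b sits at a mean of 22.5 and HSFA4c at 33.7 in HS, and HSFA1c stays near 1.

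The mutants were then compared with WT within each condition, to see whether loss of RS2Z proteins alters these HSF transcripts. In HS, 0 of the 9 genes were called in rs2z35, rs2z36 and rs2z35 36, where 0.0302%, 0.142% and 0.19% of all genes were called by edgeR in rs2z35, rs2z36 and rs2z35 36. In control, 0 of the 9 were called as well, against 0.051% of all genes in rs2z35, 0.187% in rs2z36 and 0.174% in rs2z35 36. At such background shares a count of 0 of 9 says little about these genes. DESeq2 also called 0. An adjusted p below 0.05 at any fold was reached by 0 of the 9 in both tools, where edgeR gave 0.095%, 1.44% and 1.75% of all genes in HS and 0.412%, 0.803% and 1.78% in control for rs2z35, rs2z36 and rs2z35 36. With an unadjusted p below 0.05, edgeR gave 3, 2 and 0 of the 9 genes in HS for rs2z35, rs2z36 and rs2z35 36, against 8.56%, 15.2% and 14.2% of all genes. In control it gave 2, 3 and 0, against 10.5%, 14.1% and 17%.

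The differences from WT stayed below the fold threshold in all genes but HSFA4b, although HSFA1c and HSFA1e also had low counts. For the 8 genes other than HSFA4b, the log2FC against WT lay between -0.36 and 0.26 in HS and between -0.47 and 0.50 in control over the 3 mutants. Their 95% intervals stayed within -0.64 to 0.51 in HS and within -0.85 to 0.81 in control, so a change of 1 on the log2 scale lay outside each interval. Smaller changes remain possible. In HS, HSFA5 had a log2FC of -0.36 ± 0.13 in rs2z35 (unadjusted p = 0.0183, adjusted p = 0.472). In the same comparison HSFA1b was at -0.26 ± 0.11 (unadjusted p = 0.0382, adjusted p = 0.544) and HSFA8 at -0.26 ± 0.12 (unadjusted p = 0.0444, adjusted p = 0.563). In rs2z36 HS the value of HSFA1b was 0.26 ± 0.11 (unadjusted p = 0.0352, adjusted p = 0.280). None of these passed the adjustment over all genes.

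In control, the smallest p-value of a member was that of HSFA4c in rs2z36, which had 12.3, 9.20 and 9.82 CPM, against 7.41, 7.24 and 7.46 CPM in WT control. The libraries did not overlap, and the log2FC was 0.50 ± 0.14 (unadjusted p = 0.00350, adjusted p = 0.137). HSFA1e in rs2z36 control had 3.28, 3.50 and 2.72 CPM, against 4.92, 3.89 and 4.38 CPM in WT control, also without overlap, with a log2FC of -0.47 ± 0.18 (unadjusted p = 0.0186, adjusted p = 0.260). HSFA8 in rs2z36 control was at 0.23 ± 0.10 (unadjusted p = 0.0325, adjusted p = 0.309). With replicate numbers as a block in edgeR, these rs2z36 values were 0.49 for HSFA4c (adjusted p = 0.125), -0.47 for HSFA1e (adjusted p = 0.275) and 0.23 for HSFA8 (adjusted p = 0.323). For HSFA5 in rs2z35 control the log2FC was -0.29 ± 0.10 (unadjusted p = 0.0140, adjusted p = 0.324). HSFA4b, with its few reads, had the widest intervals: its log2FC was 0.88 ± 0.33 (unadjusted p = 0.0199, adjusted p = 0.360) in rs2z35 control and 1.69 ± 0.74 (unadjusted p = 0.0395, adjusted p = 0.295) in rs2z36 HS, where the 95% interval ran from 0.10 to 3.29. Single libraries moved both values by over 1.5 times. In rs2z35 control the log2FC of HSFA4b was 0.49 without rs2z35 control replicate 1, and in rs2z36 HS it was 3.48 without WT HS replicate 2 and 1.11 without WT HS replicate 3.

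**Figure D4:**
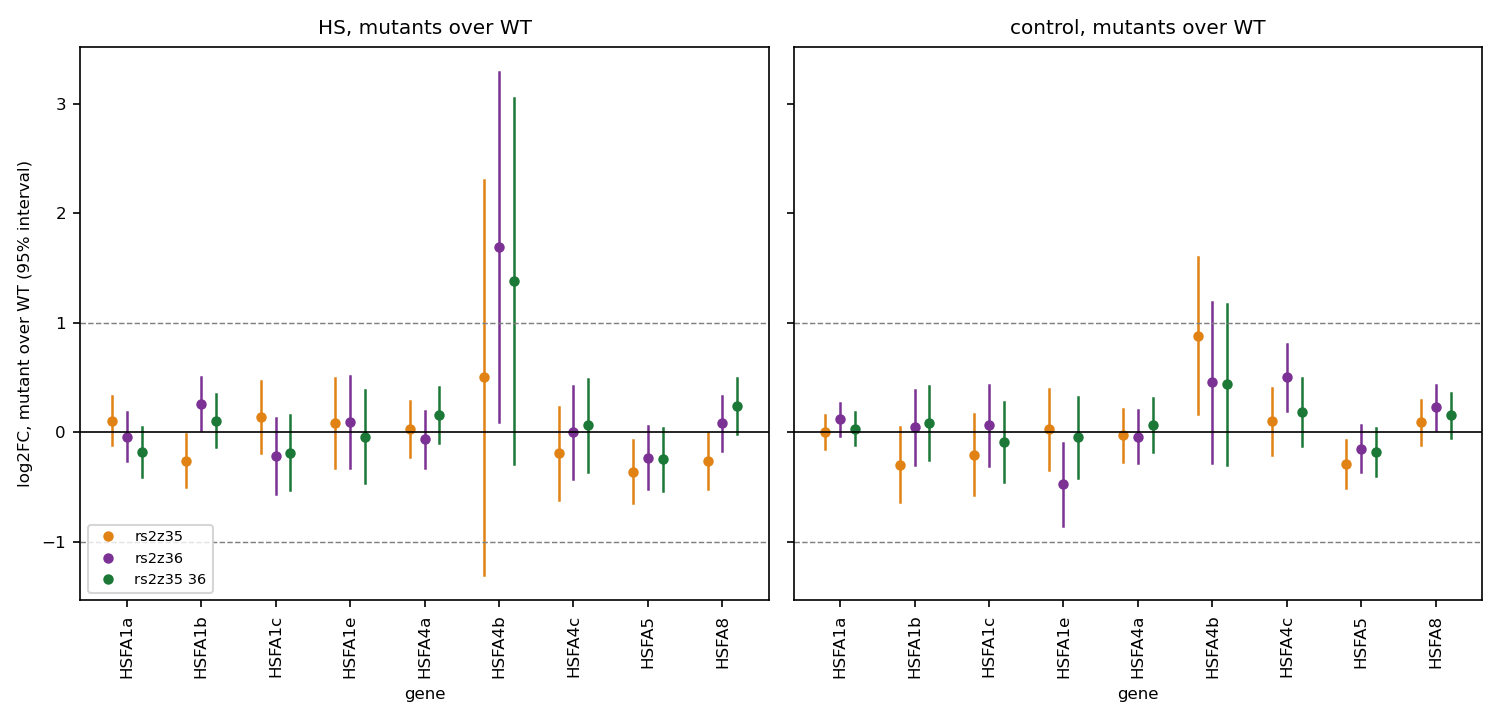
Log2FC of each mutant over WT with 95% intervals in HS (left panel) and control (right panel). Dashed lines mark a log2FC of 1 and of -1. Apart from HSFA4b, all intervals lie between -0.85 and 0.81.

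The interaction, the heat response of a mutant minus that of WT, was fitted over all 24 libraries. It was called for 0 of the 9 genes in rs2z35, rs2z36 and rs2z35 36, where 0.0122%, 0.106% and 0.0407% of all genes were called by edgeR in rs2z35, rs2z36 and rs2z35 36. DESeq2 gave 0 as well. At an adjusted p below 0.05 and any fold edgeR gave 0 of the 9, against 0.122%, 0.203% and 0.11% of all genes. An unadjusted p below 0.05 was reached by 1, 1 and 0 of the 9, against 7.4%, 8.75% and 8.55% of all genes. The gene in rs2z35 was HSFA8, whose interaction was -0.37 ± 0.15 (unadjusted p = 0.0252, adjusted p = 0.598), and the gene in rs2z36 was HSFA1e, at 0.55 ± 0.26 (unadjusted p = 0.0484, adjusted p = 0.568). For HSFA1b the interaction was 0.02 ± 0.20 in rs2z35, 0.20 ± 0.20 in rs2z36 and 0.01 ± 0.20 in rs2z35 36 (SE). HSFA4b had the widest errors, with an interaction of -0.39 ± 0.93 in rs2z35, 1.23 ± 0.82 in rs2z36 and 0.94 ± 0.84 in rs2z35 36 (SE), and adjusted p-values from edgeR of 0.961, 0.699 and 0.796 in rs2z35, rs2z36 and rs2z35 36. Without WT HS replicate 2 the interactions of HSFA4b became 1.42 in rs2z35, with the sign turned, 3.04 in rs2z36 and 2.75 in rs2z35 36. Without WT HS replicate 3 they became -0.97, 0.65 and 0.36 in rs2z35, rs2z36 and rs2z35 36. The sign in rs2z35 also turned without rs2z35 HS replicate 2 or rs2z35 control replicate 1. For the other 8 genes the 95% intervals lay between -1.05 and 1.10. These bounds are the widest over the 8 genes and 3 mutants, and both came from rs2z36. A difference between genotypes in the heat response of these genes was thus not detected. For each gene, differences inside its own interval could not be told from none.

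The mutants were also set against each other, in contrasts added after the data were seen. By the thresholds above edgeR called 0 of the 9 genes in each of the 6 contrasts. In HS the share of all genes called was 0.147% for rs2z35 36 against rs2z35, 0.125% for rs2z35 36 against rs2z36 and 0.151% for rs2z36 against rs2z35. In control it was 0.0212%, 0.0552% and 0.0552% for the same contrasts. At an adjusted p below 0.05 and any fold, HSFA1b passed in rs2z36 HS against rs2z35 HS, where 1.06% of all genes did, and HSFA8 passed in rs2z35 36 HS against rs2z35 HS, where 2.16% did. No other value of the 9 genes passed, and the shares of all genes were 0.648% for rs2z35 36 HS against rs2z36 HS and 0.14%, 0.212% and 0.178% in control.

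HSFA1b had 253, 264 and 302 CPM in rs2z36 HS, against 172, 206 and 193 CPM in rs2z35 HS. The libraries did not overlap, and the log2FC was 0.52 ± 0.11 (SE, edgeR, adjusted p = 0.0483). HSFA8 had 71.7, 73.2 and 60.0 CPM in rs2z35 36 HS, against 45.0, 54.6 and 44.7 CPM in rs2z35 HS. There was no overlap here either, and the log2FC was 0.50 ± 0.12 (SE, edgeR, adjusted p = 0.0473). Both values lay close to the threshold and were lost with the replicate number as a block, at an edgeR adjusted p of 0.220 for HSFA1b and 0.169 for HSFA8. Without single libraries the log2FC of HSFA1b lay between 0.44 and 0.58 and its adjusted p between 0.0773 and 0.190, so the gene passed in 0 of 6 cases. For HSFA8 the log2FC lay between 0.44 and 0.60 and the adjusted p between 0.0299 and 0.203, and it passed in 2 of 6, without rs2z35 36 HS replicate 3 and without rs2z35 HS replicate 2.

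Across the 24 libraries, the gene most like each member was named by Pearson's r of log2 CPM among 18486 other genes with a mean of at least 1 CPM. For HSFA4c this was Solyc02g065540, described as an E3 ubiquitin-protein ligase, with r = 0.998, and for HSFA8 it was Solyc01g068000, described as a protein phosphatase 2C, with r = 0.997. HSFA1b was most like Solyc06g068055 (r = 0.997), HSFA5 most like Solyc06g082480 (r = 0.992) and HSFA4a most like Solyc07g052730 (r = 0.984). HSFA4b was most like Solyc09g014720 (r = 0.959) and HSFA1a most like Solyc12g010680 (r = 0.940). For HSFA1c the best match was Solyc02g067470 at r = 0.821, and for HSFA1e it was Solyc06g054530 at r = 0.766. For HSFA1b and its match r was 0.693 within the 12 HS libraries and 0.799 within the 12 control libraries, both below the value over all 24. For HSFA8 the values were 0.962 in HS and 0.657 in control, and for HSFA4c 0.942 in HS and 0.760 in control. In contrast, HSFA1c and HSFA1e, whose HS and control libraries overlap, had a higher r within HS than over all 24 libraries. It was 0.877 in HS and 0.711 in control for HSFA1c, and 0.903 in HS and 0.651 in control for HSFA1e. For the other 4 genes r was lower within each condition than over all libraries. The points of each r share library, depth and scaling, and each match is the highest of many, so no p is given.

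For scale, HSFA2, the HSF whose gene is induced by HSFA1 proteins, had a log2FC of 7.07 ± 0.25 in rs2z35, 6.91 ± 0.18 in rs2z36, 6.97 ± 0.18 in rs2z35 36 and 7.35 ± 0.20 in WT in HS against control. It was measured at 2805 to 4420 CPM in HS and 21.4 to 30.5 CPM in control. The increase in HSFA1b and HSFA4c was thus smaller than that of HSFA2 in each genotype, with no overlap of their 95% intervals. Of the 3 HSF genes outside the 9 that could be identified, HSFA2 and Solyc09g065660 were called higher in all 4 genotypes, and Solyc02g079180 was called lower in rs2z35 36 alone, where its log2FC was -1.22. In the other genotypes its log2FC lay between -2.31 and -0.18. The descriptions that identified Solyc09g065660 and Solyc02g079180 came with the study's lists of differentially expressed genes, made from these same libraries. HSFA2 was named as the heat-inducible HSF that the study turns on. These 3 genes are therefore no sample of the other HSF genes.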

How the data were processed

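The 9 genes and the other HSF genes were chosen with earlier results of these data known. Per the methods, the authors aligned reads of non-directional polyA libraries with STAR to SL4.0, counted them per ITAG4.0 gene with htseq-count (HTSeq 0.9.1 in the submitters' processing notes), and adjusted the HS counts with ComBat-Seq against a batch variable not given in the sources used here. The deposited values are raw counts in control and adjusted whole-number counts in HS, 34075 genes in each of 24 libraries. Without strand, reads of overlapping antisense genes cannot be told apart. Column totals are given as depth, and intervals from counts cover counting error only.

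Genes whose reads in the libraries fitted summed to 10 or more were tested with the quasi-likelihood test of edgeR 4.0.16 in R 4.3.3, with TMM factors and Benjamini-Hochberg adjustment over all genes tested. Each HS against control comparison used the 6 libraries of its genotype, mutants were compared with WT among the 12 libraries of a condition, and interactions used all 24. CPM values on the log2 scale carry a prior count of 2, and ratios of counts carry no pseudocount. Alternatives were DESeq2 1.42.0 without shrinkage or with apeglm 1.24.0, other scalings, filters and sets of libraries, a replicate block, and leaving out each library. The scripts were tested on simulated data. Contrasts between mutants were added after the data were seen.

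The text names all 9 genes, RS2Z35 and RS2Z36 as a check of the labels, HSFA2, the HSF genes that could be identified by description, and for each of the 9 genes the gene with the highest r. Over the 24 pairs of libraries of a group, the chi-square per degree of freedom was 4.58 to 27.0, so no library was counted as a repeat of another. Libraries with the same replicate number had correlated deviations above 0.1 in every pair only for rs2z36 against WT in control, at 0.177 to 0.502. They were taken as paired there by the data alone, and the values with the block are also given. In HS, same-number libraries of a mutant and WT had negative r throughout, from -0.526 to -0.0264. Pairs with different numbers had r from -0.103 to 0.484 in rs2z35, -0.212 to 0.396 in rs2z36 and 0.00201 to 0.297 in rs2z35 36. The same number in HS was thus not read as a pairing, and HS fits with the block are alternatives only. The cause of the negative r was not tested. Sequences and levels per gene length were not analysed here.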

Additional observations from a re-analysis of the deposited data

How the results depend on the processing

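In HS against control, the number of the 9 genes called ranged from 4 to 8 over 56 alternatives and was in no case more than 1.5 times off. Leaving out 1 library gave 5 to 6 called genes in rs2z35, 4 to 5 in rs2z36, 4 to 6 in rs2z35 36 and 4 to 6 in WT. Of single heat values under the alternatives, 474 kept direction and side of the threshold, 15 lost the call, 13 gained it and 2 changed sign, HSFA1c in rs2z35 at -0.55 and HSFA1e in rs2z36 at -0.43, both with total counts as library size. With all 24 libraries in one fit, HSFA4b lost its call in rs2z36, with an adjusted p of 0.0188 in edgeR. Against WT and for the interactions the count was 0 in all 147 alternatives. Of 18 single values printed for these comparisons, 14 of 302 alternatives changed the sign and 0 gave a call. These changes arose when 1 library was left out, with interactions from -0.97 to 1.42 for HSFA4b in rs2z35, from -0.049 to 0.12 for HSFA1b in rs2z35 and from -0.14 to 0.14 for HSFA1b in rs2z35 36. Of the other 63 values, 28 changed sign in 67 of 1021 alternatives, and 0 gave a call. The replicate block gave 6, 5, 6 and 5 called genes in HS against control of rs2z35, rs2z36, rs2z35 36 and WT, and 0 elsewhere, so it changed no count. Counts over all genes varied more. For the mutants against WT in HS, DESeq2 called 17, 77 and 107 genes in rs2z35, rs2z36 and rs2z35 36, edgeR 7, 33 and 44, and edgeR with the replicate block 6, 9 and 9. For the mutants against WT in control, DESeq2 called 82, 109 and 147 and edgeR 12, 44 and 41. For the interactions, DESeq2 called 41, 45 and 32, edgeR 3, 26 and 10, and edgeR with the block 1, 18 and 4. The cause of these differences was not tested. Depth limits HSFA4b, which had a count of 0 to 14 per HS library, more than the other genes. Group means in CPM moved by more than 1 SD for most genes and groups when TMM factors were computed within each condition or replaced by total counts, so levels hold only on the scale given. For the contrasts between mutants, DESeq2 gave an adjusted p of 0.00332 for HSFA1b and 0.00959 for HSFA8, and total counts in edgeR gave 0.0269 and 0.0254.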
